A study of Drosophila melanogaster with 2 samples.

Results

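The CCT chaperonin subunits are the products of 8 genes, CCT1 to CCT8, among 10845 with a probe set of their own, and were taken as the probe sets that the platform annotation names with these symbols. They had 9 probe sets of 13966 that were not controls, 2 for CCT2 and 1 for each other subunit, and the gene identifiers of all 8 carry the same symbols in the RefSeq gene table. The arrays were Affymetrix DrosGenome1 arrays, which read each transcript with short oligonucleotide probes. Both arrays were made from head poly(A) RNA of adult day 3 males of the inbred w1118 strain of Drosophila melanogaster, also spelled w118 in the labels. Flies of both groups were gathered within 24 h of emerging and held in darkness at 25 °C and 70% humidity, with roughly 200 to a bottle. The paraquat group had been fed sucrose with 15 mM paraquat for 30 h from adult day 2, and the unexposed group is labelled as day 3 heads from food bottles. Diet and paraquat therefore cannot be told apart, and flies on plain sucrose were not analysed here. Heads were pooled by sieving frozen flies, and how many heads went into an array is not known here. Each group held 1 array, so no difference has a replicate check and no p-value was computed.

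CCT, also called TRiC, is the chaperonin of the eukaryotic cytosol. It is a barrel of stacked rings in which every subunit holds a fixed place, and it closes over an unfolded protein as it hydrolyses ATP. Actin and tubulin are its best-known clients and reach it in part from prefoldin, while phosducin-like proteins act as its cofactors. In mouse photoreceptors, CCT and a phosducin-like protein assemble the beta subunit of a visual G protein. In yeast, CCT1, CCT2, CCT4 and CCT5 lie together on the side of the ring that binds ATP with high affinity, and CCT3, CCT6, CCT7 and CCT8 lie on the low-affinity side.

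Every CCT subunit had a higher value on the paraquat array. Of the 7 subunits measured on both arrays, 4 were at least 2-fold higher (CCT1, CCT3, CCT5 and CCT6) and none was at least 2-fold lower. CCT5 differed most, at 4.08-fold, and CCT8 least, at 1.14-fold. The median log2 ratio of the 7 was 1.11, or 2.16-fold, against a median of 0.03 over all 6178 genes measured. Over those genes, 8.03% reached 2-fold higher, 8.08% reached 2-fold lower, and 52.2% had a log2 ratio above 0. The members were selected on earlier values of this same contrast, their higher intensities with paraquat, so the counts describe the group and test nothing. Measured means at or above an intensity floor of 477.3 on both arrays, and all intensities given here are scaled to a common array median. Errors after ± are 1 SE of array error, built from control probe sets, and leave out the spread between flies and RNA preparations. In pooled heads, a change in RNA per cell and a change in the number of cells that hold it cannot be told apart.

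**Figure D1:**
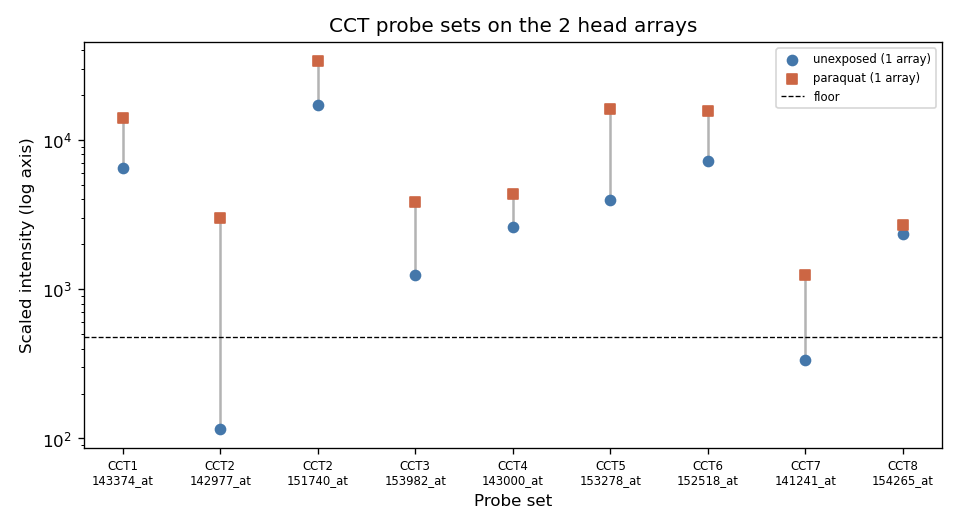
Scaled intensity (log axis) of each CCT probe set for unexposed heads (circles) and paraquat heads (squares), with the floor of 477.3 as a dashed line. All 9 squares lie above their circles, CCT8 shows the smallest gap, and the unexposed values of CCT7 and of 1 CCT2 probe set lie under the floor.

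On the high-affinity side, CCT1 (CG5374, probe set 143374_at) read 6436 unexposed and 13978 with paraquat, a log2 ratio of 1.12 ± 0.15. CCT5 (CG8439, 153278_at) read 3942 unexposed and 16076 with paraquat, a log2 ratio of 2.03 ± 0.18. That was the highest ratio among the measured subunits and stood at the percentile 98.96 of all measured genes. CCT4 (CG5525, 143000_at) read 2627 and 4355, a log2 ratio of 0.73 ± 0.26, which is 1.66-fold and short of 2-fold. All 4 subunits of this side were measured, 2 were at least 2-fold higher, and their median log2 ratio was 1.05.

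CCT2 (CG7033) lies on the same side and had 2 probe sets, both higher with paraquat but by different amounts. The brighter one, 151740_at, read 17219 unexposed and 33858 with paraquat, a log2 ratio of 0.98 ± 0.12. At 1.97-fold it lay just under the 2-fold line, and it was just over that line without further scaling (log2 1.01), after quantile normalization (1.08) and after loess (1.06). The dimmer one, 142977_at, read 114.9 unexposed, under the floor, and 3012 with paraquat, a bound of 6.31-fold higher against the floor. The pair thus disagreed in size, and only the brighter one enters the CCT counts and medians. Of 5050 probe sets with 1 gene symbol that were under the floor unexposed, 4.95% reached 2 times the floor or more with paraquat.

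On the low-affinity side, CCT6 (CG8231, 152518_at) read 7228 unexposed and 15621 with paraquat, a log2 ratio of 1.11 ± 0.14, which differed from that of CCT1 by 0.01 ± 0.20. CCT3 (CG8977, 153982_at) read 1248 and 3836, a log2 ratio of 1.62 ± 0.45. Its error is the widest of the measured subunits, because its unexposed value was 2.61 times the floor. CCT7 (CG8351, 141241_at) read 333.6 unexposed, under the floor, and 1239 with paraquat. Against the floor it was 2.59-fold higher, which is its bound. The bound carries no array error, and the additive error SD of 358.3 exceeds the unexposed value of CCT7. CCT8 (CG8258, 154265_at) read 2359 and 2689, a log2 ratio of 0.19 ± 0.31, a difference smaller than its array error. Of the 3 subunits measured on this side, 2 reached 2-fold, the median log2 ratio was 1.11, and the ranges of the sides overlapped (0.19 to 1.62 against 0.73 to 2.03). With CCT7 counted at its bound, the median over all 8 subunits was 1.12.

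**Figure D2:**
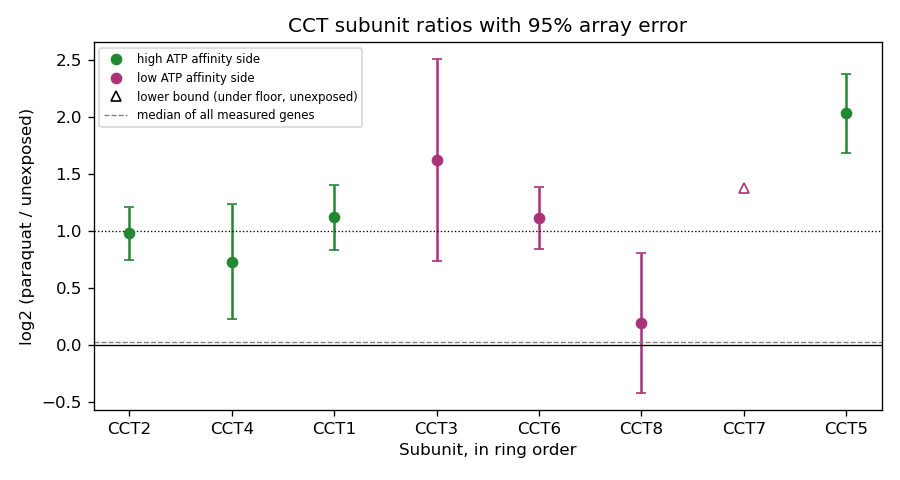
Log2 ratio of paraquat over unexposed for each subunit in the ring order known from yeast, with bars for the 95% interval of array error, and CCT7 as a lower bound (open triangle, no bar). The bars of 6 subunits lie above 0, that of CCT8 crosses it, and the subunits of both sides are mixed in height.

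The measured ratios varied from subunit to subunit. Their log2 values had an SD of 0.59 over 7 subunits, against a root mean square array error of 0.25. CCT5 exceeded CCT8 by 1.84 ± 0.36, a 3.58-fold difference in ratio, whereas CCT1, CCT2 and CCT6 lay between 0.98 and 1.12. CCT5 also exceeded CCT6 by 0.92 ± 0.23, and CCT6 exceeded CCT8 by the same amount with an error of 0.34. The proteasome, another complex of fixed composition, had an SD of 0.38 over 26 genes with an array error of 0.15. The SD was 0.46 over 6 prefoldin genes and 0.21 over 12 genes of cytosolic ribosomal proteins, with array errors of 0.23 and 0.12. These spreads were not tested against each other. Array error does not cover differences between probe sets of the same gene. With the dimmer one at its bound, those of CCT2 differed by 1.68 in log2 ratio, close to the range of 1.84 among the subunits. Whether the subunits or their probe sets differ was therefore not settled here.

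The subunit proportions within each array were read as the share of each subunit in the summed intensity of the 7 measured ones, which came to 41059 unexposed and 90412 with paraquat, a 2.20-fold difference. Probe sets differ in how strongly they bind their target, so a share says nothing of how a subunit compares with another, and it is compared here with its own value on the other array. The share of CCT5 was 9.60% ± 0.99 unexposed and 17.8% ± 1.01 with paraquat. CCT8 went the other way, from 5.74% ± 0.90 to 2.97% ± 0.43. CCT1 held 15.7% ± 1.18 and 15.5% ± 0.92 of the sum, and CCT6 17.6% ± 1.25 and 17.3% ± 0.99, so neither share moved by more than its error. CCT2 had 41.9% ± 1.84 and 37.4% ± 1.54, CCT3 3.04% ± 0.87 and 4.24% ± 0.46, and CCT4 6.40% ± 0.91 and 4.82% ± 0.48. With CCT2 left out of the sum, an alternative chosen after its large share was seen, the share of CCT5 was 16.5% and 28.4%, and that of CCT8 9.89% and 4.75%.

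**Figure D3:**
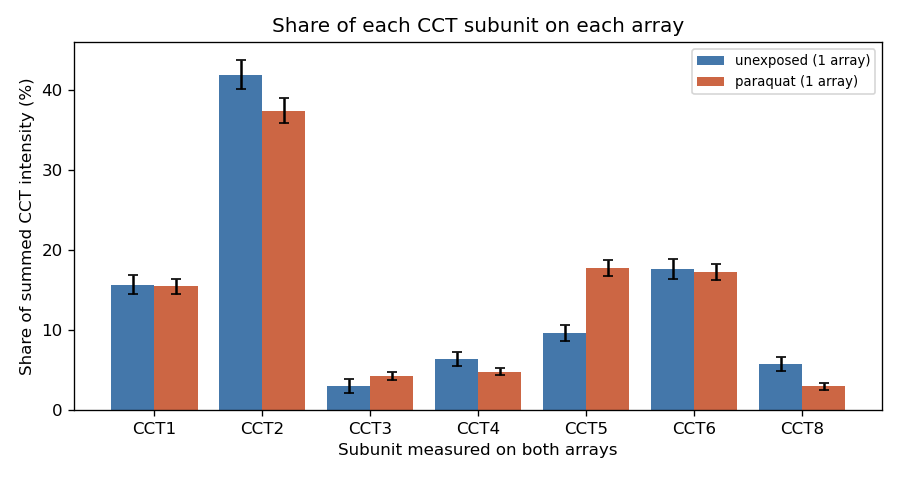
Share (%) of each measured subunit in the summed CCT intensity of the unexposed array and of the paraquat array, with bars of 1 array error. CCT5 takes 9.60% unexposed and 17.8% with paraquat, CCT8 takes 5.74% and 2.97%, and CCT1 and CCT6 keep nearly equal bars.

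Of the partners that bring proteins to CCT, 5 of 6 prefoldin genes had ratios above 0 and 1 reached 2-fold, for a median log2 ratio of 0.55. The prefoldin gene mgr read 2093 unexposed and 4857 with paraquat (log2 1.21 ± 0.29). Pfdn2 (0.70 ± 0.20), Pfdn1 (0.62 ± 0.30) and Pfdn4 (0.47 ± 0.19) were below 2-fold. Pfdn6, the lowest of the list, had a log2 ratio of -0.21 ± 0.17. In the list of phosducin-like cofactors, 2 of 3 genes were measured, and neither reached 2-fold in its measured probe set. The log2 ratio was 0.61 ± 0.14 for viaf and 0.47 ± 0.23 for CG4511. A dimmer viaf probe set read 466 unexposed, just under the floor, and 1034 with paraquat. Its bound of 2.17-fold higher against the floor lay above 2-fold and carries no array error. The third gene of this list, CG7650, was under the floor on both arrays.

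Transcripts of the cytoskeletal clients were mostly lower on the paraquat array. Of 7 measured tubulin genes, 5 had ratios below 0 and none reached 2-fold in either direction. Over all measured genes, 52.2% had a log2 ratio above 0. The median tubulin log2 ratio was -0.45. The beta-tubulin betaTub56D read 28274 unexposed and 20836 with paraquat (-0.44 ± 0.12), alphaTub85E read 15312 and 11008 (-0.48 ± 0.13), and betaTub97EF differed in the other direction (0.50 ± 0.16). For alphaTub67C (-0.60 ± 0.37) and gammaTub37C (-0.53 ± 0.48) the array error was wide. Another gammaTub37C probe set read below 0 on both arrays. The actin genes measured were Act79B (-0.96 ± 0.16) and Act87E (-0.10 ± 0.12). The probe sets of Act79B, Act87E and alphaTub85E carry the suffix that marks a sequence shared within a gene family, so their genes are uncertain. Muscle markers had 8 of 9 measured genes below 0 (median -0.40). Their summed intensity over 11 genes, values below 0 included, was 213948 unexposed and 86811 with paraquat, and the part of muscle in the actin values was not tested. Clients built of WD40 repeats had a median log2 ratio of -0.01 over 4 genes, from Gbeta5 (-0.50 ± 0.41) through Gbeta76C (-0.06 ± 0.12) and Rack1 (0.04 ± 0.12) to fzr (0.41 ± 0.29).

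Among the cofactors that assemble tubulin dimers after CCT releases them, Tbcb, which binds alpha-tubulin, read 2070 unexposed and 6099 with paraquat (log2 1.56 ± 0.29). Tbca, which binds beta-tubulin, had a log2 ratio of 0.21 ± 0.16 and Tbce one of -0.23 ± 0.35. Tbcc was above the floor on the unexposed array alone (883.7) and Tbcd on the paraquat array alone (499.1, under the 533.2 of the highest control for foreign transcripts on that array).

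The proteasome, which is not a chaperone, and other chaperones give a scale for the CCT values. The CCT median of 1.11 lay near that of the proteasome, 1.20, whose 26 measured genes were all above 0, 19 of them by 2-fold or more. The mitochondrial chaperonin gene Hsp60A had a log2 ratio of 0.97 ± 0.12 and CG11267, listed with it, 0.51 ± 0.12. Of the other genes of that list, CG9920 and Hsp60D read 765.8 and 801.6 unexposed and below 0 with paraquat, and 2 were under the floor on both arrays. Of 10 measured heat shock cognates and cochaperones, 8 were above 0 and 1 reached 2-fold, and the median was 0.27. The 5 measured heat shock genes had a median of 1.01. They ran from -0.03 for Hsf, the heat shock transcription factor, to 3.06 for Hsp68. In that median stv entered at 0.07, the mean of 2 probe sets that disagreed (1.41 ± 0.14 and -1.26 ± 1.09). The lower one read 516.1 with paraquat, under the 533.2 of the highest control for foreign transcripts on that array. With the brightest probe set of each gene the median was 1.41. The small heat shock gene Hsp26, under the floor unexposed (446.5) and at 29253 with paraquat, was at least 61.3-fold higher. No test of these list differences was made.

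**Figure D4:**
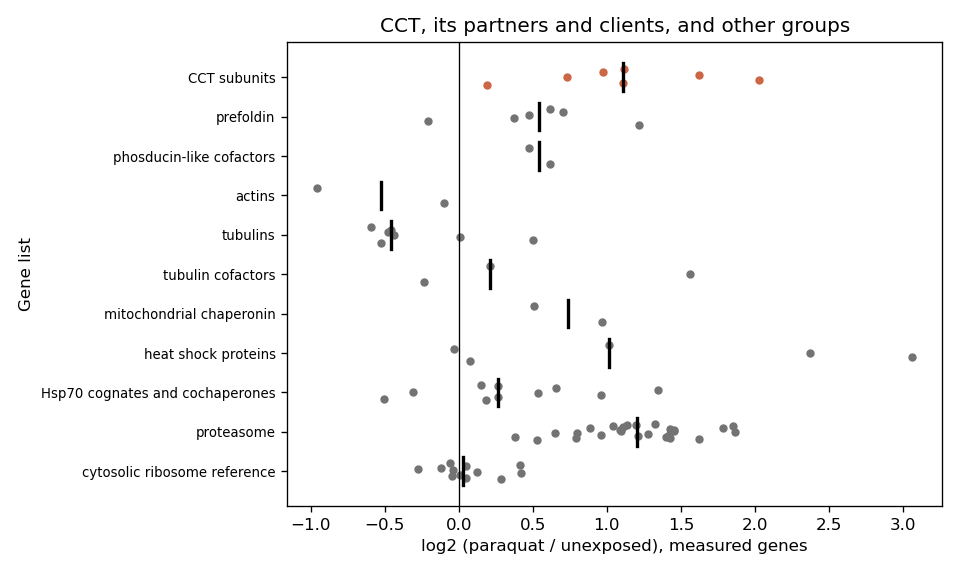
Log2 ratio of paraquat over unexposed for every measured gene (points) and the median (bar) of each gene list. CCT (median 1.11) and proteasome genes (1.20) lie to the right of 0, prefoldin nearer to it (0.55), and most tubulins and both actins to its left.

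The arrays differed in other ways that stand beside these values. The head tissue label fits the markers, with 8 of 8 photoreceptor and 9 of 12 neuronal genes measured on both arrays (medians -0.11 and -0.25). Glial markers, also of the head, had 6 of 7 measured genes below 0 and a median of -0.81, with Inx2 at -1.28 ± 0.57, nrv2 at -1.20 ± 0.15 and, in the other direction, loco at 1.84 ± 0.24. The glial gene wrapper read 2432 unexposed and 519.3 with paraquat, under the highest control for foreign transcripts on the paraquat array. Markers of the male reproductive tract, an organ of the abdomen, were above the floor on the unexposed array alone for 14 of 20 genes, and 3 were measured on both. Over all 13966 non-control probe sets, 8333 were at or above the floor unexposed, 8366 with paraquat and 7425 on both. Acp26Aa (479.3), Acp53Ea (517.1) and ocn (532.3) were only just above the floor unexposed. The summed intensity of the 20 genes, values below 0 included, was 51394 unexposed and 4317 with paraquat. Of the 14, 9 had values below 0 with paraquat, Mst84Dd, Mst57Da and Acp95EF among them. Summed head fat body markers came to 642411 and 97264 over 10 genes, 6 of the 8 measured at least 2-fold lower. The 3′ over 5′ intensity ratio, a sign of RNA integrity, was 2.74 unexposed and 2.48 with paraquat for GAPDH. It was 11.7 and 9.79 for eIF-4a, and 15.3 and 11.8 for the actin control. The 18S ribosomal RNA probe set of the 3′ end read 45413 and 22533. Their part in the CCT values was not tested.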

How the data were processed

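The authors deposited 1 linear intensity for each probe set, and some fall below 0. Both arrays had a mean of 2500 once 2% of probe sets were trimmed from either end, which shows the scale they were set to. The summarising software was not given in the sources used here. The arrays were brought to the same median, 825.2, over 13966 non-control probe sets. The floor of 477.3 is the 40th percentile of the 2-array mean, and log2 was taken above it. Bounds divide the brighter value by the floor and carry no array error, so they are not strict limits on the true ratio. Genes took the mean log2 ratio of measured probe sets with 1 gene symbol (annotation of 2016, 12443 probe sets). Array error combined an additive SD of 358.3 (46 values of absent controls) with an SD of 0.12 in log2 ratio (9 spiked-in probe sets). Errors of shares were propagated from both. The steps were tested on simulated data. Python 3.11.15, numpy 2.4.6, pandas 2.3.3, scipy 1.17.1 and statsmodels 0.14.6 were used.

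Groups were taken from the sample titles. Members, lists and tests were chosen with earlier results of these data known. Genes named are the 8 subunits, and up to 4 genes per other list with the largest absolute log2 ratio. The 4 genes nearest to CCT in level, also part of that rule, are not given, because levels of different probe sets are not comparable. Named outside this rule, after their values were seen, are Pfdn6, betaTub56D, Tbcc, Tbcd, CG7650, Hsf, Hsp26, CG9920, Hsp60D, the marker genes of the male reproductive tract and the genes of the closing observations. Alternatives were no scaling, quantile normalization, loess, floors at the 60th and 80th percentiles, a pseudocount of 100 in place of the floor, the brightest probe set per gene and a fold of 1.5. No probe or gene sequence was used here, and no coordinates are given.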

Additional observations from a re-analysis of the deposited data

How the results depend on the processing

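All 45 values of the 7 measured subunits under the 7 alternatives of scaling, floor and probe set choice were above 0, from 0.13 to 2.41. Each subunit had 1 measured probe set, so moving the floor or taking the brightest probe set could not change its ratio. Leaving out the scaling shifted every ratio by the same amount. Only quantile normalization, loess and the pseudocount could reorder the same subunits. CCT5 was the highest and CCT8 the lowest measured subunit in 7 of 8 settings each, the main one included. The exceptions were the pseudocount of 100, where CCT2 was highest because its dimmer probe set entered its mean (log2 2.41), and the floor at the 80th percentile, which left 4 subunits, CCT8 not among them, with CCT2 lowest (0.98). With the pseudocount the CCT median was 1.33 in place of 1.11, over all 8 subunits, CCT7 at 1.63. The count at least 2-fold higher was 4, and ran from 3 (floors at the 60th and 80th percentiles, which measured 6 and 4 subunits) to 6 (pseudocount). The share of all genes at least 2-fold higher also moved, from 8.03% to 5.89% and 5.43% with these floors and 12.6% with the pseudocount. In the main setting 6 subunits were at least 1.5-fold higher, where 19.1% of all genes were. The SD of the CCT log2 ratios ran from 0.48 to 0.71. The median of the mitochondrial chaperonin list was -0.27 with the pseudocount, against 0.74, because genes under the floor on 1 or both arrays entered it. Medians of some other lists moved too. That of the WD40 clients was 0.27 after quantile normalization and 0.11 after loess, against -0.01. With the pseudocount, that of the actins was -0.87 against -0.53, and that of the heat shock genes 1.66 against 1.01. No paired analysis was possible because each group held 1 array. The additive error limits dim probe sets: array error came to 1.54 in log2 ratio at the floor and 0.19 at 10 times the floor.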

Other observations

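The names CCT1 and CCT2 are also older names of Pcyt1 and Pcyt2, enzymes of phospholipid synthesis with no part in the chaperonin, and both have probe sets of their own on the array. Pcyt1, which makes CDP-choline, read 3661 unexposed and 11340 with paraquat, 3.10-fold higher (log2 1.63 ± 0.19). Pcyt2 read 6174 and 8408 (0.45 ± 0.16). Neither entered any CCT value above.

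No CCT gene is a direct neighbour of another among protein-coding genes in the RefSeq gene order of Release 6. Of the 16 genes next to them, 4 were measured on both arrays and none of these was 2-fold different, with log2 ratios from -0.30 to 0.17. In that table CCT5 overlaps EndoG and CCT7 overlaps CG9839, and whether the probes lie in the overlap is not known here. EndoG, a mitochondrial nuclease gene, read below 0 unexposed and 1173 with paraquat, and CG9839 read 1089 and 883.5.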
